A study of Physcomitrium patens with 20 samples.

Results

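The 266 transposable elements (TEs) described here were already transcribed in wild-type moss protonema. They are the TE rows of the deposited count table whose counts over the 3 wild-type libraries sum to at least 15, and they are 266 of 241351 TE rows, or 0.110%. A further 4241 TEs had between 1 and 14 wild-type counts. The wild-type counts chose these TEs, so their wild-type levels, and every comparison of a mutant with wild type, are given as a description with no test. Tests were made between mutants only, in a fit that left the wild-type libraries out.

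Polyadenylated RNA was sequenced from protonema, the branching filaments a spore of the moss Physcomitrium patens first grows into, of the cultivar that the labels spell Grandsen, grown for 7 days. The 20 libraries came from wild type (wt, 3 libraries), from a mutant of both DRM1 and DRM2 (drm12, 3), from the single mutants met (2), cmt (3) and dnmt3b (3), and from the double mutants met/dnmt3b (3) and cmt/dnmt3b (3). The labels put the libraries in 2 batches. All of met and met/dnmt3b and replicates 1 and 2 of wt, drm12 and cmt fell in batch 1 (11 libraries), while dnmt3b, cmt/dnmt3b and replicate 3 of wt, drm12 and cmt fell in batch 2 (9 libraries). How many independent lines or cultures stand behind the replicates of a genotype is not given in the sources used here, so a p-value reflects the spread among libraries that may differ for technical reasons alone.

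Transposable elements are mobile DNA sequences that most plant cells keep silent through DNA methylation and compact chromatin. In this moss, MET maintains methylation at CG sites, CMT maintains it at CHG sites, and DNMT3b is the main enzyme for CHH sites in heterochromatin, where H is any base but G. DRM1 and DRM2 are relatives of the plant enzymes that small RNAs guide to their targets. A TE can nevertheless give RNA in a wild-type cell, from its own promoter or as part of a longer transcript of a neighbouring gene, and counts per TE cannot tell these apart.

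The TE rows carry numeric identifiers only. Their family, sequence, strand and position were not used here, so the TEs are named by identifier and ordered by how they behave. How reads that map to several places were counted is not given in the sources used here, so near-identical copies may share reads and the level of a single row is uncertain to that extent. Levels are in CPM, the count of a row divided by the library's total over all gene and TE rows, times 1000000. The libraries held between 14236575 and 21811993 counts. A row with 0 counts could therefore hold up to between 0.138 and 0.211 CPM in a library, which is 3 counts of its total. In these bulk samples, fewer cells with a transcript and less of the transcript per cell cannot be told apart. The levels of the targeted methyltransferase genes and of protonema marker genes were not analysed here, because the gene identifiers of the files were not paired with gene names.

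Whole chromosomes differed in level between some libraries, and the TEs could not be placed on chromosomes. With chromosome numbers read from the gene identifiers, a reading that was not checked against an annotation, the median gene of chromosome 19 lay 0.92 log2 units above its usual level in wt replicate 3 (508 genes), against -0.09 to 0.07 in the other libraries. In the cmt/dnmt3b libraries the median gene of chromosome 16 was raised by 0.83 log2 units (692 genes) and that of chromosome 10 by 0.54 (636 genes). Whether any of the 266 TEs lie there, and what part these shifts have in their levels, was not tested.

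In wild type a few TEs carried much of the signal and most were low. The mean wt level of the 266 TEs ran from 0.302 to 47.6 CPM with a median of 0.726 CPM. For 113 of them the wt counts summed to between 15 and 29, for 45 to at least 100, and for 5 to at least 1000. The 10 highest held 41.2% of the summed level. TE 768318 was the highest, at 58.1, 46.96 and 37.6 CPM in wt replicates 1, 2 and 3, and 4406 genes had a higher mean wt level than this. The next 4 were TE 899307 (38.6, 8.84 and 49.9 CPM), TE 928527 (32.8, 22.2 and 37.2 CPM), TE 845990 (34.7, 20.8 and 24.7 CPM) and TE 936921 (24.6, 24.5 and 15.3 CPM). The other 5 of the 10 were TEs 809690, 824342, 879436, 863397 and 821870, with means between 8.40 and 19.4 CPM.

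The median spread between the wt libraries was wider for these TEs than for genes in the same range of counts, a difference that was not tested. Among TEs with 15 to 199 wt counts (245 TEs) the median coefficient of variation over the 3 libraries was 0.560, and among the 3761 genes with such counts it was 0.454. Within this range TEs and genes were not matched in count, and 113 TEs had 15 to 29 wt counts. Lower counts widen the coefficient by counting error alone, so the difference cannot be read as a trait of TEs. A count was found in all 3 wt libraries for 237 TEs. The greater part of the wt counts came from replicate 3, the batch 2 library, for 75 TEs (28.2%), from replicate 1 for 35 (13.2%) and from replicate 2 for 14 (5.26%). Among the genes with 15 to 199 wt counts these shares were 14.4, 8.27 and 16.6%. The TE shares are over all 266 TEs, of which 245 had such counts. The level was highest in replicate 3 for 127 TEs, and for 43.4% of these genes. TE 821870 owed its place among the 10 highest to 1 library, with 0.0627, 3.64 and 21.5 CPM. The opposite was seen for TE 859820 (13.4, 9.14 and 0.141 CPM) and TE 851051 (9.16, 5.62 and 0 CPM), which were at or near 0 in replicate 3.

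At the threshold, 11 TEs had exactly 15 wt counts and 24 TEs, left out, had 14. Those just inside had a median level of 0.321 CPM in wt and 0.370 CPM in cmt/dnmt3b, and those just outside 0.310 and 0.398 CPM. TE 780377, with 1, 4 and 10 counts in the wt libraries, and TE 785629, with 5, 10 and 0, were just inside. TE 745642, with 4, 2 and 8, and TE 746603, with 2, 5 and 7, were just outside. The threshold thus cuts through rows of like level, and a rule of at least 30 counts would have kept 153 TEs.

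Since the wt counts chose these TEs, a large share of the TE counts of wt follows from the choice. They held 82.7, 74.8 and 54.7% of all TE counts in the 3 wt libraries, and 73.5, 76.4 and 40.6% in the drm12 libraries, with the batch 2 library lowest in both genotypes. The share was 42.7 and 63.5% in met, 47.9, 46.6 and 29.6% in cmt, 35.2 to 36.2% in dnmt3b, 23.9 to 25.1% in met/dnmt3b and 9.34 to 12.5% in cmt/dnmt3b. The summed level of all other TEs was 252 ± 210.3 CPM in wt and 28365 ± 2952 CPM in cmt/dnmt3b (SD, n = 3 each).

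The summed level of the 266 TEs themselves was 577, 419.9 and 598 CPM in the wt libraries. It was 642, 618 and 1096 CPM in drm12, 892 and 1214 in met, 1492, 1524 and 1735 in cmt, 983, 741 and 793 in dnmt3b, 896, 1128 and 735 in met/dnmt3b, and 2868, 3685 and 4487 in cmt/dnmt3b. In CPM every mutant library lay above the highest wt library, but with TMM scaling (normalization factors from edgeR) drm12 replicate 2, at 598, lay below wt replicates 1 and 3, at 619 and 616. Within batch 1 the mean was 1.26 times that of wt in drm12, 2.11 times in met, 3.02 times in cmt and 1.84 times in met/dnmt3b. Within batch 2, against the lone wt library, it was 1.83 times in drm12, 2.90 times in cmt, 1.40 times in dnmt3b and 6.15 times in cmt/dnmt3b. These ratios, and the ratios to wt below, are of CPM without TMM scaling. The TMM factors were 1.21 to 1.30 in cmt/dnmt3b and 0.83 to 0.97 in wt. With TMM scaling the summed level was 616 in wt replicate 3 and 2334, 3054 and 3460 in cmt/dnmt3b.

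**Figure D1:**
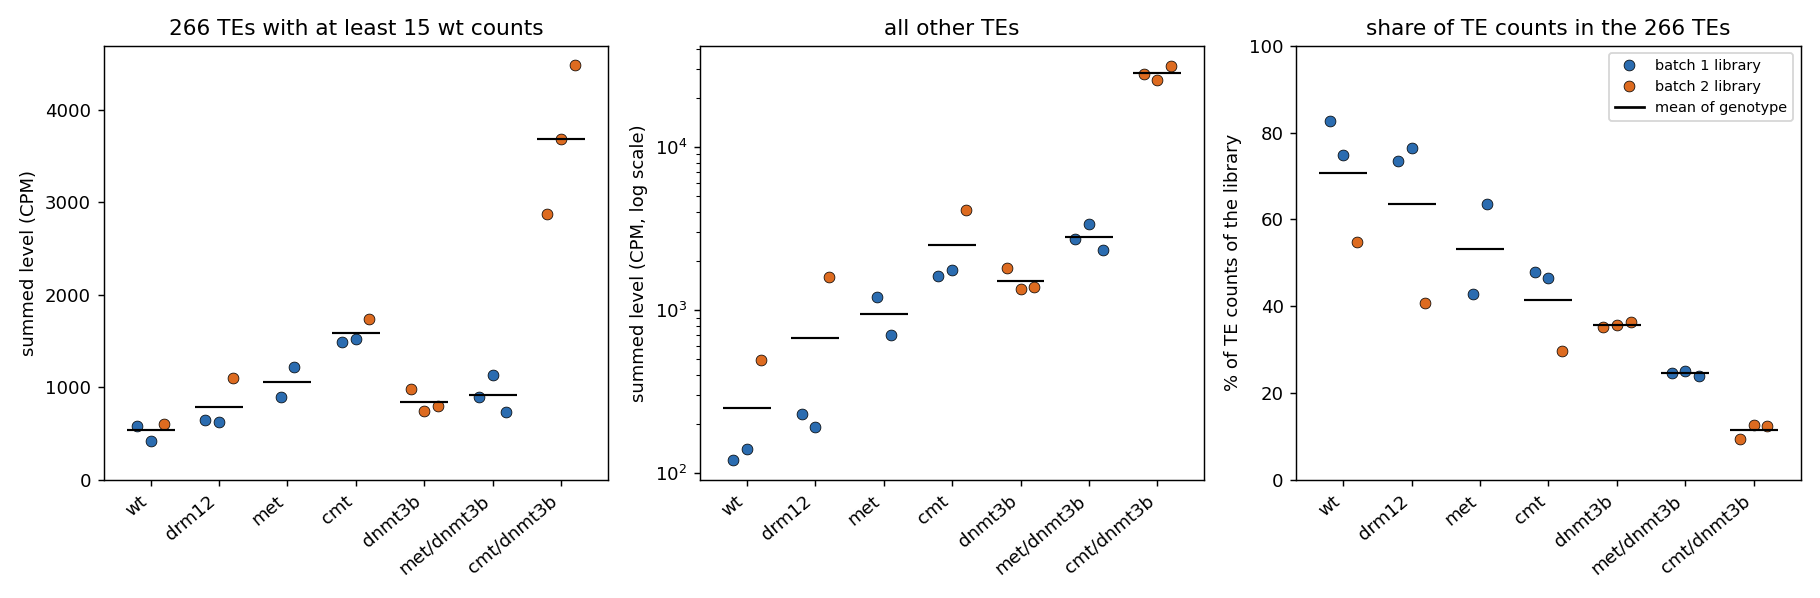
Summed level in CPM of the 266 TEs transcribed in wild type (left), of all other TEs (middle, log scale), and the share of TE counts in the 266 TEs (right), for each of the 20 libraries. Points are libraries coloured by batch and lines are genotype means. The share is 54.7 to 82.7% in wt, 40.6 to 76.4% in drm12 and lowest in cmt/dnmt3b (9.34 to 12.5%), and the wt libraries have the lowest summed levels in CPM.

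A few TEs made up much of the higher sums. In cmt, TE 832889, TE 929068 and TE 804154 held 51.5% of the summed level, and in cmt/dnmt3b the same 3 TEs led and held 38.8%. In wt they held 0.74%. Without them, the summed level of the other 263 TEs was 1.46 times the wt value in cmt and 4.26 times in cmt/dnmt3b, 1.28 times in met, 1.44 times in drm12, 1.58 times in dnmt3b and 1.51 times in met/dnmt3b. In drm12, replicate 3 exceeded the mean of the other 2 libraries by 465 CPM, of which TE 821870 made up 24.4% and TE 899307 21.0%.

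Single TEs lay between 0.5 and 2 times their wt mean in 208 of 266 cases in drm12, 192 in met, 175 in cmt, 152 in dnmt3b, 136 in met/dnmt3b and 111 in cmt/dnmt3b, as seen in the plot of mutant against wild-type means. The median ratio of the mutant mean to the wt mean was 1.24 in drm12, 1.10 in met, 1.14 in cmt, 1.46 in dnmt3b, 0.845 in met/dnmt3b and 1.59 in cmt/dnmt3b. An edgeR fit of all 20 libraries, with TMM scaling and a batch term, gave log2 fold changes against wt for 254 of the TEs. Their medians were 0.25, 0.24, 0.19, 0.35, -0.18 and 0.23 in the same order, so cmt/dnmt3b was not the highest there. A ratio over 2 was seen for 46 TEs in drm12, 32 in met, 54 in cmt, 78 in dnmt3b, 65 in met/dnmt3b and 114 in cmt/dnmt3b. A ratio under 0.5 was seen for 12, 42, 37, 36, 65 and 41 TEs in the same order. Genes chosen by the same rule, with at least 15 wt counts (18791 genes), had a ratio over 2 in 2.63, 4.15, 5.19, 7.13, 4.98 and 14.4% of cases and under 0.5 in 0.82, 4.25, 3.95, 7.96, 5.02 and 6.63% of cases. These genes had higher counts than the TEs, with a median wt level of 19.5 CPM, so the shares differ in precision.

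Across the 6 mutants, 50 of the 266 TEs stayed between 0.5 and 2 times the wt mean throughout. Another 92 were over 2 in at least 1 mutant and under 0.5 in none, 80 were under 0.5 in at least 1 and over 2 in none, and 44 did both. A ratio over 2 in all 6 mutants was seen for 7 TEs, and under 0.5 in all 6 for 2. All 6 ratios of a TE share its wt mean, which rests on few counts for many TEs. An error in that mean moves them the same way, so the 6 are not independent. These patterns were not counted for genes, so they cannot be read as a trait of the TEs.

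**Figure D2:**
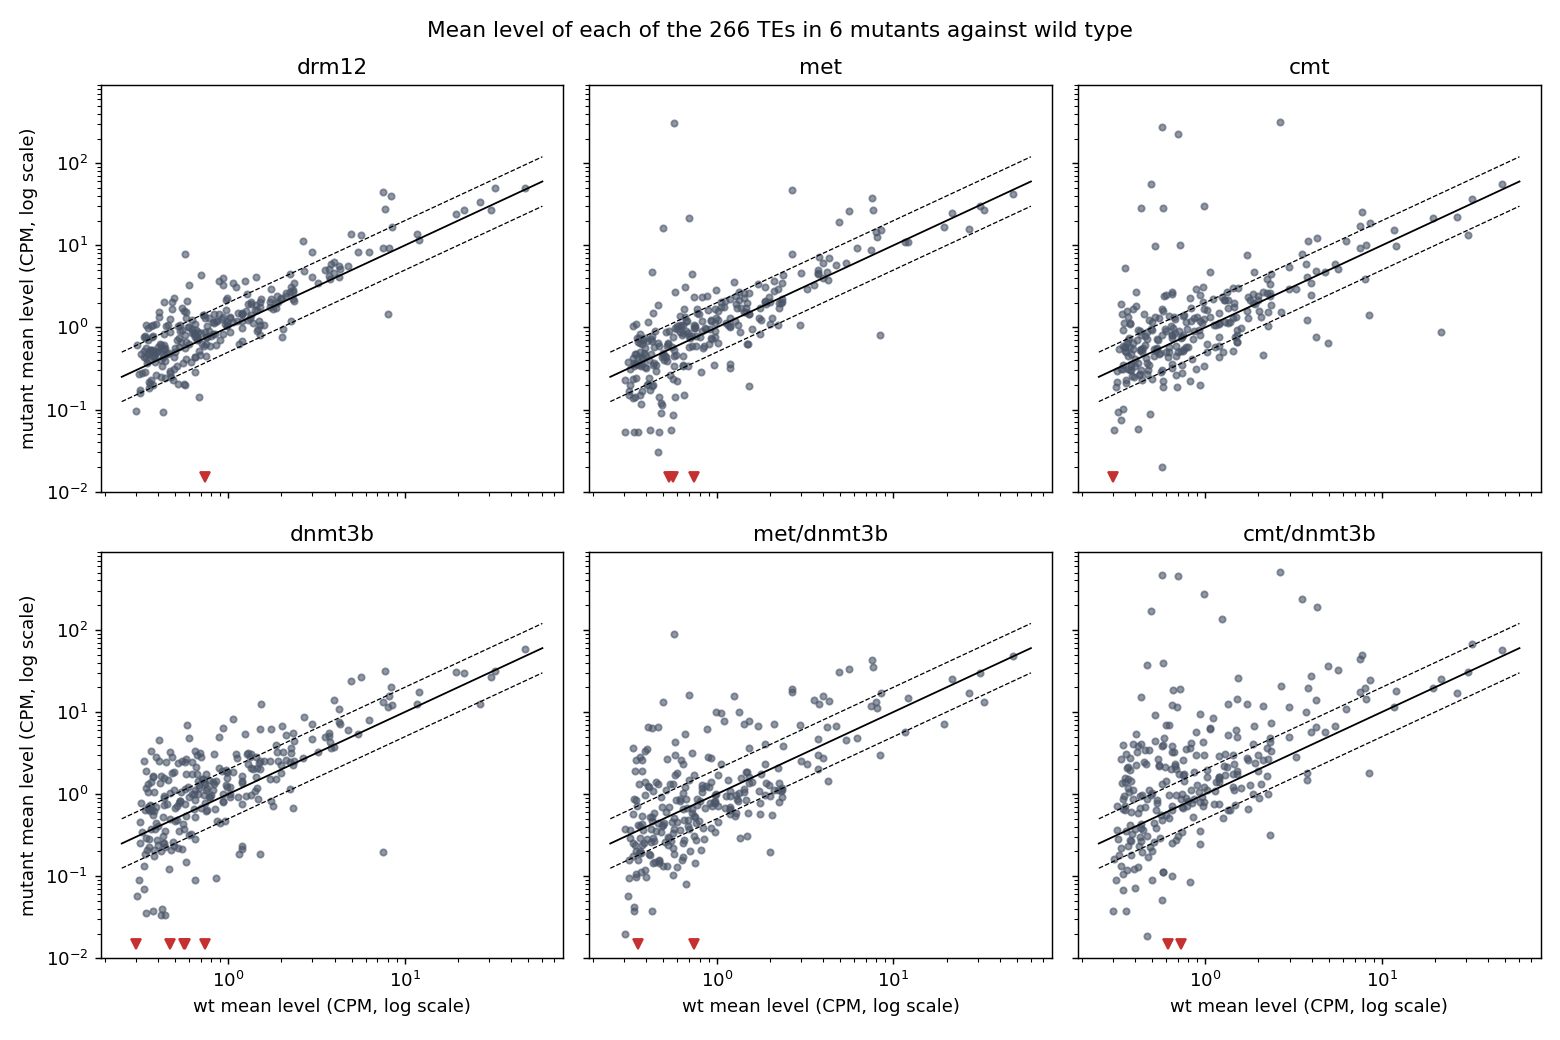
Mean level of each of the 266 TEs in a mutant (vertical axis, CPM, log scale) against its mean in wild type (horizontal axis, CPM, log scale), 1 panel per mutant. Points are TEs, the solid line marks equal levels, dashed lines mark 2 times and 0.5 times, and red triangles at the foot mark TEs with 0 counts in that mutant. Between the dashed lines lie 208 points in drm12 and 111 in cmt/dnmt3b, and the points far above them in cmt and cmt/dnmt3b include the 3 TEs that lead the sums.

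The TEs that varied least were transcribed in each of the 7 genotypes at similar levels. Among TEs with a wt mean of at least 1 CPM (97 TEs), the genotype means varied least for TEs 768318, 964867, 899198, 938403 and 872489. TE 768318 was between 37.1 and 81.9 CPM in all 20 libraries, and its genotype means ran from 41.6 ± 3.15 CPM in met (SD, n = 2) to 58.8 ± 20.2 CPM in dnmt3b (SD, n = 3). TE 938403 lay between 0.781 and 2.65 CPM in the 20 libraries and TE 964867 between 3.17 and 8.94 CPM.

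For tests that do not use wild type, the counts of all genes and TEs in the 17 mutant libraries were fitted with edgeR's quasi-likelihood test with genotype and batch as terms, and p-values were adjusted over the 26815 features tested with a threshold of 0.05. Of the 266 TEs, 245 passed the low-count filter. The 21 that did not had wt means between 0.302 and 0.742 CPM. Among the mutants, drm12 had the fewest features past the threshold against wt (10 of 26751, or 0.0374%, in a fit of all 20 libraries), and it serves as the reference for the other 5 mutants. These 5 comparisons share the drm12 libraries. In all, 124 of the 245 TEs passed the threshold in at least 1 of 10 comparisons (50.6%, beside 59.8% of all features), and 26 were higher in some and lower in others (10.6%, beside 4.5%).

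Between 6 and 27 of these TEs passed the threshold in the single mutants. In met against drm12, 5 rose and 1 fell, beside 0.332% of all features that rose and 0.216% that fell. In cmt, 15 rose and 12 fell, beside 4.12% and 1.86% of all features. In dnmt3b, 8 rose and 2 fell, beside 0.966% and 3.55%. Of all TEs tested, 0.961% rose and 0.015% fell in met, 8.34% and 0.3% in cmt, and 0.795% and 0.15% in dnmt3b. The filter keeps a TE with counts in any 1 genotype, so many TEs tested had few counts in drm12 from which to fall. Within batch 1, 3 rose and 1 fell in met, beside 0.457% and 0.642% of all features, and 24 rose and 11 fell in cmt, beside 7.31% and 4.59%. Within batch 2, where the lone drm12 library is assumed to vary like the other groups, 22 rose and 25 fell in dnmt3b, beside 9.91% and 10.3%. In that batch cmt also has 1 library, so no calls are read from cmt against drm12 there. Without drm12 replicate 3, 10 rose and 1 fell in met. In cmt, leaving out drm12 replicate 3 gave 40 rises and 12 falls, and so did leaving out cmt replicate 3 instead. The features called were then 2790 and 2767, against 1605 with every library kept. Both runs compare the batch 1 libraries of cmt and drm12, since the batch term takes up the batch 2 library that remains. They are thus not independent checks.

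In the double mutants 58 and 64 TEs passed the threshold against drm12. In met/dnmt3b against drm12, 48 rose and 10 fell, beside 13.7% of all features that rose and 2.93% that fell. In cmt/dnmt3b, 43 rose and 21 fell, beside 22.9% and 9.99%. Of all TEs tested, 41.7% rose and 0.15% fell in met/dnmt3b, and 70.3% rose and 0.39% fell in cmt/dnmt3b. The median log2 fold change of the 245 TEs was -0.24 in met/dnmt3b and 0.07 in cmt/dnmt3b, and over all TEs tested it was 3.64 and 5.70. The low-count filter keeps TEs with counts in a double mutant alone, which favours rises over all TEs tested. The 245 TEs were also chosen by wt counts, so these shares and medians are not a like comparison. Within batch 1, 47 rose and 6 fell in met/dnmt3b, beside 7.51% and 1.81% of all features. Within batch 2, with the same lone drm12 library, 48 rose and 41 fell in cmt/dnmt3b, beside 26.8% and 15.2%. Without drm12 replicate 3, 42 rose and 1 fell in cmt/dnmt3b, with 3025 features called in all, against 8822. That run leaves drm12 and cmt/dnmt3b no shared batch, and its batch term rests on cmt alone. Loss of the falls through that library and through the lost shared batch cannot be told apart. Without drm12 replicate 2, 21 rose and 5 fell in met/dnmt3b. The order of the mutants by number of calls turned with these libraries. Without drm12 replicate 3, cmt had 52 calls and cmt/dnmt3b 43, and without drm12 replicate 2, cmt had 24 and met/dnmt3b 26. Over all features these calls were 2790 and 3025, and 1335 and 2506. The difference in number between single and double mutants was not tested.

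Each double mutant was then compared with the single mutants it combines. In met/dnmt3b against met, all in batch 1, 13 of the 245 TEs rose and 5 fell, beside 6.4% and 2.77% of all features, but without met replicate 2 only 1 rose. Without met/dnmt3b replicate 1 or 3 the calls were 8 and 10 in all, against 18, and over all features 926 and 1189, against 2460. In cmt/dnmt3b against dnmt3b, all in batch 2, 36 rose and 26 fell, beside 29% and 16.4%. In cmt/dnmt3b against cmt, 34 rose and 8 fell, beside 17.2% and 5.3%, and without cmt replicate 3, the batch 2 library of cmt, 33 rose and 49 fell. Over all features 6200 were called in that run, against 6025, and it leaves cmt and cmt/dnmt3b no shared batch. In cmt/dnmt3b against met/dnmt3b, which share no batch, 21 were higher and 12 lower, beside 2.89% and 2.59%, and leaving out met/dnmt3b replicate 3 or cmt/dnmt3b replicate 1, 2 or 3 gave 17, 19, 18 and 17 calls against 33. Over all features these runs gave 883, 833, 979 and 764 calls against 1469. The log2 fold change on losing DNMT3b, taken with its sign, was higher in the cmt than in the met background for 14 TEs and lower for 1, beside 0.291% and 0.224% of all features. That count of 15 was 71 without cmt replicate 3, 7 without met/dnmt3b replicate 3, and 8 and 6 without cmt/dnmt3b replicates 2 and 3. Over all features the calls were 5110, 52, 68 and 45 in these runs, against 138, so the whole table moved with them. Leaving out a met library leaves 1, and the count moved in those runs too.

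The scaling bears on the comparisons with cmt/dnmt3b. In cmt/dnmt3b against drm12 the log2 fold change of the median gene was -0.20, and -0.04 with factors computed from genes alone, so falls of about that size are not falls relative to the median gene.

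**Figure D3:**
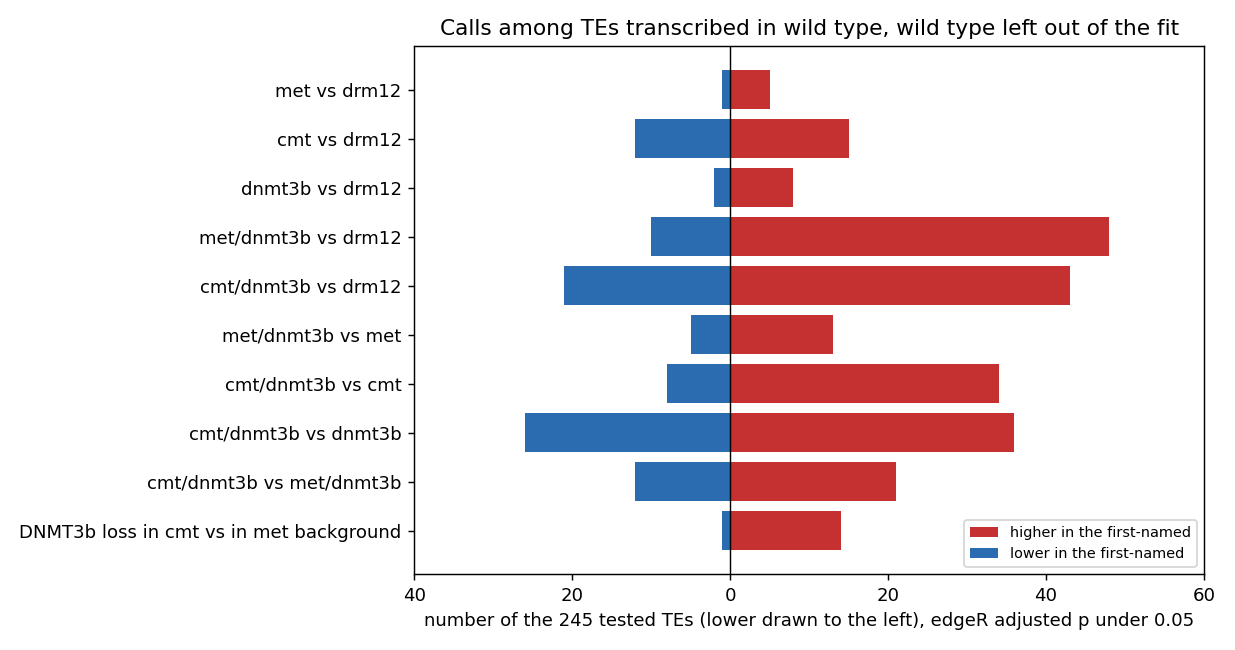
Number of the 245 tested TEs that passed the threshold (edgeR adjusted p under 0.05) in each comparison, higher to the right and lower to the left. The last bar is the difference between the effect of DNMT3b loss in the cmt and in the met background. The largest totals are in cmt/dnmt3b against drm12 (43 higher, 21 lower) and against dnmt3b (36 higher, 26 lower).

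Some TEs were low in 1 mutant and higher in every library of the other mutants. Read over the 17 mutant libraries, without wt, this held for 38 of the 266 TEs. There were 14 such TEs in met/dnmt3b (5.26% of the 266, beside 2.01% of genes with at least 15 wt counts), 12 in cmt (4.51%, beside 0.601% of genes), and 3 each in drm12, met, dnmt3b and cmt/dnmt3b (1.13%, beside 0.447, 0.197, 2.88 and 2.5% of genes). These genes had higher counts than the TEs (median wt level 19.5 against 0.726 CPM), so the shares differ in precision. In met only 2 libraries had to be low, against 3 in the other mutants. The gap between the low mutant and the lowest library of the others was narrow for many of these TEs. The TEs with a wide gap or a high level follow, mutant by mutant.

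The TE with the widest gap in cmt was among the highest in wt. TE 936921, the fifth highest in wt, had 0.902, 1.11 and 0.642 CPM in the cmt libraries. It had 24.6, 24.5 and 15.3 CPM in wt, 32.4, 21.5 and 26.4 in drm12, 25.99 and 23.8 in met, 39.5, 24.2 and 25.5 in dnmt3b, 26.7, 28.5 and 20.7 in met/dnmt3b and 24.2, 26.2 and 25.1 in cmt/dnmt3b. No cmt library came near any library of another genotype. It fell in cmt against drm12 (log2 fold change -4.97 ± 0.32 SE, adjusted p = 9.7e-08) and was higher in cmt/dnmt3b than in cmt (log2 fold change 4.67 ± 0.39 SE, adjusted p = 5.9e-06).

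TE 851051 followed the same pattern except in wt. It had 0.661, 0.942 and 0.321 CPM in cmt, 14.4, 13.2 and 13.6 in drm12, 21.5 and 16.6 in met, 28.7, 22.99 and 19.1 in dnmt3b, 34.1, 35 and 21.8 in met/dnmt3b and 42.99, 36.1 and 31.3 in cmt/dnmt3b. It fell in cmt against drm12 (log2 fold change -4.49 ± 0.35 SE, adjusted p = 8.02e-07) and was higher in cmt/dnmt3b than in cmt (log2 fold change 5.79 ± 0.46 SE, adjusted p = 3.17e-06). The wt libraries, at 9.16, 5.62 and 0 CPM, were split, and replicate 3 was below the cmt libraries.

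TE 894912, a low one, had 1 count in all cmt libraries together, where the drm12 libraries had 30 counts and the cmt/dnmt3b libraries 204. The ratio of drm12 to cmt was 31.6 (95% exact counting interval 5.25 to 1290; adjusted p = 0.00177), and that of cmt/dnmt3b to cmt was 219 (38.9 to 8700; adjusted p = 0.000173). TE 928527, the third highest in wt, was lower in cmt by a smaller step, at 15.3, 13.5 and 11.8 CPM against 37.7, 21.6 and 21.8 in drm12 (log2 fold change -1.03 ± 0.28 SE, adjusted p = 0.0332). It passed the threshold in that comparison under 8 of 15 alternative settings.

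TE 859820 was the counterpart in dnmt3b. It had 0.114, 0.354 and 0.119 CPM in the dnmt3b libraries, against 51.7, 35.4 and 47.96 in drm12, 38.5 and 35.98 in met, 19.1, 24.4 and 8.76 in cmt, 45.1, 48.2 and 37.2 in met/dnmt3b and 42.8, 50.3 and 38.5 in cmt/dnmt3b. The libraries of both double mutants, which also lack DNMT3b, lay within the range of the drm12 libraries. It fell in dnmt3b against drm12 (log2 fold change -7.44 ± 0.49 SE, adjusted p = 4.08e-07) and was higher in cmt/dnmt3b than in dnmt3b (log2 fold change 7.36 ± 0.47 SE, adjusted p = 2.51e-08). The batch 2 wt library was as low as the dnmt3b libraries, while those of drm12 and cmt were not.

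In met, TE 886884 was low, at 0.12 and 0.268 CPM against 1.85, 2.09 and 1.46 in drm12 (log2 fold change -3.53 ± 0.61 SE, adjusted p = 0.0115), and the met/dnmt3b libraries had 1.397, 1.78 and 0.901 CPM (log2 fold change 2.83 ± 0.59 SE, adjusted p = 0.00938 against met). It had 2.51, 1.97 and 0.0702 CPM in wt and was highest in dnmt3b, at 9.05, 5.01 and 4.42 CPM (log2 fold change 2.43 ± 0.505 SE, adjusted p = 0.0103 against drm12). The batch 2 libraries of wt and cmt, at 0.0702 and 0.367 CPM, were also low.

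In drm12 itself, TE 929067 was low, at 1.48, 0.771 and 2.13 CPM. The other genotypes had 6.08, 5.91 and 12.01 CPM (wt), 13.7 and 15.7 (met), 3.85, 3.16 and 4.81 (cmt), 16.3, 9.32 and 9.14 (dnmt3b), 14.2, 13.2 and 11.8 (met/dnmt3b) and 15.7, 22.8 and 19.9 (cmt/dnmt3b). No drm12 library reached the lowest library of any other genotype. It was higher than in drm12 in met (log2 fold change 3.51 ± 0.38 SE, adjusted p = 0.000199), and also in the other mutants, by log2 fold changes of 1.42 (adjusted p = 0.0138) in cmt, 2.62 (adjusted p = 0.00186) in dnmt3b, 3.43 (adjusted p = 2e-05) in met/dnmt3b and 2.998 (adjusted p = 6.64e-05) in cmt/dnmt3b.

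**Figure D4:**
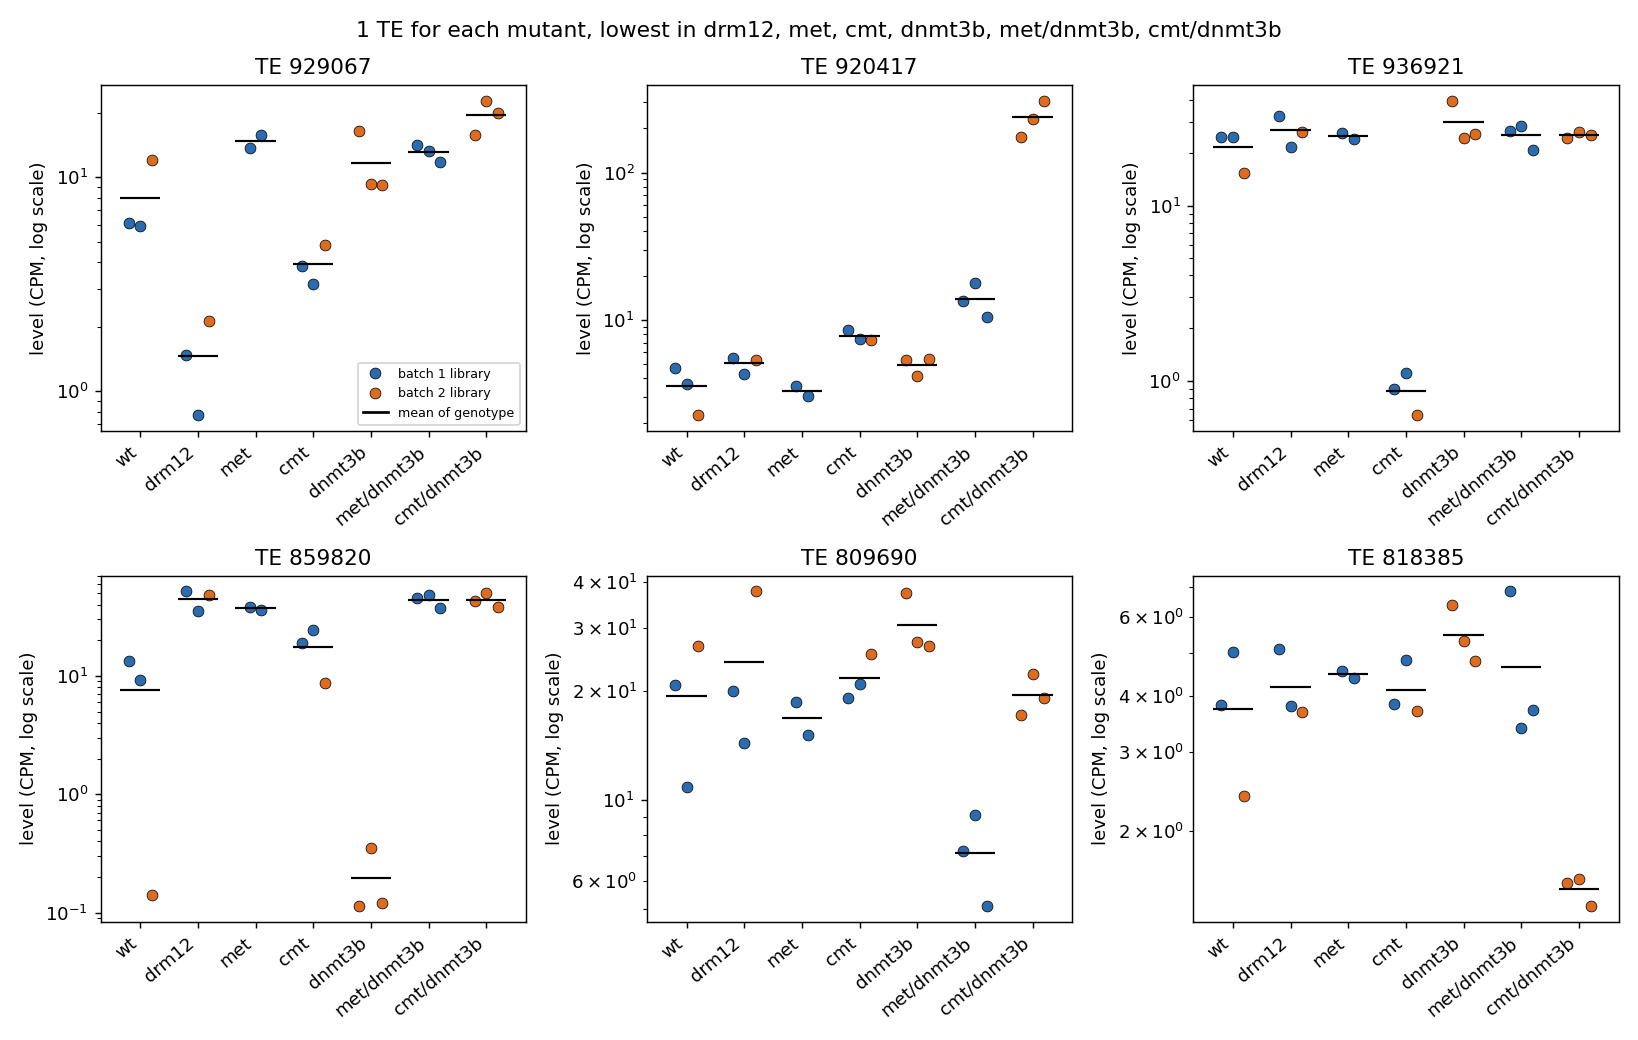
Level (CPM, log scales with different ranges) in each of the 20 libraries of 6 TEs, 1 for each mutant, chosen as the TE lowest in that mutant with the highest level in the other mutants. Points are libraries coloured by batch and lines are genotype means. TE 936921 lies at 0.642 to 1.11 CPM in cmt and at 15.3 to 39.5 CPM elsewhere, and TE 859820 is under 0.4 CPM in dnmt3b and in wt replicate 3 alone, while TE 920417 in met and TE 929067 in drm12 are lower by small gaps.

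The double mutants had low TEs of their own. TE 818385, picked after its values were seen as the highest of the 3 low in cmt/dnmt3b, had 1.53, 1.56 and 1.36 CPM there and at least 3.39 CPM in every library of the other mutants. TE 809690 had 7.25, 9.099 and 5.11 CPM in met/dnmt3b, below every library of the other genotypes, against 20, 14.4 and 37.8 in drm12 (log2 fold change -1.42 ± 0.296 SE, adjusted p = 0.00445) and 18.7 and 15.1 in met. It was highest in dnmt3b, at 37.4, 27.3 and 26.7 CPM. TE 879436 likewise had 5.32, 7.54 and 4.21 CPM in met/dnmt3b against 11.01, 14.8 and 15.97 in drm12 (log2 fold change -1.34 ± 0.31 SE, adjusted p = 0.00804), and its libraries of the other genotypes lay between 7.83 and 20.2 CPM. TE 822512, at 0 to 0.133 CPM in met/dnmt3b, was lower there than in drm12, at 0.738, 1.05 and 0.832 CPM (log2 fold change -3.44 ± 0.67 SE, adjusted p = 0.00275), and than in met, at 0.84 and 0.965 CPM (log2 fold change -3.32 ± 0.68 SE, adjusted p = 0.00801). In cmt/dnmt3b it had 1.53, 3.53 and 1.98 CPM, the highest of all genotypes (log2 fold change 4.71 ± 0.81 SE, adjusted p = 0.0029 against met/dnmt3b).

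In cmt/dnmt3b, TE 898076 and TE 964261 had 0 counts in all 3 libraries. TE 898076 had 1.195, 1.67 and 1.31 CPM in dnmt3b, at least 24.6-fold higher (against 3 counts over the group; adjusted p = 0.00232). TE 964261 had 0.399, 0.101 and 0.478 CPM in dnmt3b, at least 5.51-fold higher (adjusted p = 0.0141). Against drm12, at 0.123, 0.165 and 1.51 CPM, the call of TE 898076 was lost and the sign turned without drm12 replicate 3 (log2 fold change 0.05). The lone batch 2 library of cmt, replicate 3, was also at or near 0, with 0.0458 CPM for TE 898076 and 0 counts for TE 964261. TE 837660 was low in both double mutants, at 0.133, 0.431 and 0.3 CPM in met/dnmt3b and 0.396, 1.02 and 0.51 in cmt/dnmt3b, against 1.48, 1.38 and 3.33 in drm12 (log2 fold change -2.82 ± 0.76 SE, adjusted p = 0.0191 for met/dnmt3b). In cmt/dnmt3b against drm12 its sign turned without drm12 replicate 3 (log2 fold change -2.06 with it and 0.44 without).

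The 3 TEs that led the sums in cmt are described first among those that rose. TE 929068 had 0.565, 0.657 and 0.492 CPM in wt and 0.569, 1.11 and 1.79 in dnmt3b, but 188 and 429 in met, 280.3, 258 and 285 in cmt, 78.2, 119 and 69.3 in met/dnmt3b and 333, 472 and 603 in cmt/dnmt3b. It rose against drm12 (5.29, 16.9 and 1.61 CPM) in met (log2 fold change 5.12 ± 0.58 SE, adjusted p = 0.000273), in cmt (log2 fold change 5.42 ± 0.57 SE, adjusted p = 1.32e-05) and in cmt/dnmt3b (log2 fold change 6.48 ± 0.77 SE, adjusted p = 2.38e-05). The drm12 libraries were all above the wt and were split among themselves.

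TE 832889 and TE 804154 had a similar order of genotypes, with cmt and cmt/dnmt3b far above the rest. TE 832889 had 3.95, 2.57 and 1.48 CPM in wt, 7.51, 17.7 and 8.84 in drm12, 25.4 and 67.8 in met, 329.5, 316 and 304 in cmt, 1.88, 2.84 and 3.47 in dnmt3b, 17.2, 24.7 and 15.1 in met/dnmt3b and 384, 474 and 667 in cmt/dnmt3b. It rose in cmt (log2 fold change 4.801 ± 0.39 SE, adjusted p = 9.88e-07) and cmt/dnmt3b (log2 fold change 5.36 ± 0.5004 SE, adjusted p = 3.57e-06) against drm12. In dnmt3b it was lower than in drm12 (log2 fold change -1.81 ± 0.42 SE, adjusted p = 0.0205), which passed the threshold under 10 of 14 alternative settings.

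TE 804154 had 0.69, 0.777 and 0.632 CPM in wt, 2.09, 8.87 and 1.92 in drm12, 11.1 and 32.4 in met, 183, 152 and 337 in cmt, 1.82, 2.53 and 4.24 in dnmt3b, 12.9, 22.1 and 13.9 in met/dnmt3b and 301, 484 and 570.3 in cmt/dnmt3b (log2 fold change 5.69 ± 0.598 SE, adjusted p = 1.27e-05 for cmt and log2 fold change 6.398 ± 0.79 SE, adjusted p = 3.28e-05 for cmt/dnmt3b against drm12). In all 3 TEs, drm12 replicate 2 was the highest drm12 library and met replicate 2 the higher met library. Whether they are copies that share reads was not tested.

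TE 961733 was highest in cmt alone. It had 25.3, 34.5 and 26.5 CPM there, 0.308, 0.551 and 0.52 in drm12, 3.78 and 5.79 in met, 3.39, 10.3 and 5.65 in met/dnmt3b and 13.5, 14.7 and 17.3 in cmt/dnmt3b, and rose in cmt against drm12 (log2 fold change 5.91 ± 0.41 SE, adjusted p = 2.07e-07). The step down from cmt to cmt/dnmt3b (log2 fold change -1.18 ± 0.39 SE, adjusted p = 0.0406) passed the threshold under 4 of 14 alternative settings. TE 820082 rose against drm12 by a like factor in cmt, met/dnmt3b and cmt/dnmt3b, with log2 fold changes of 1.95 (adjusted p = 0.0013), 1.93 (adjusted p = 0.0023) and 1.98 (adjusted p = 0.00142).

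Other TEs rose where DNMT3b was lost together with another enzyme. TE 960530 had 95.7, 123 and 186 CPM in cmt/dnmt3b and 16.3, 17.7 and 13.04 in met/dnmt3b, but 2.35, 2.33 and 2.29 in cmt, 2.94 and 4.13 in met, 8.42, 3.596 and 4.12 in dnmt3b and 5.84, 2.98 and 2.08 in drm12. It was higher in cmt/dnmt3b than in both of its single mutants, and in met/dnmt3b than in met (log2 fold change 5.899 ± 0.52 SE, adjusted p = 9.16e-06 against cmt, log2 fold change 4.27 ± 0.38 SE, adjusted p = 5.2e-07 against dnmt3b, log2 fold change 2.23 ± 0.42 SE, adjusted p = 0.0048 for met/dnmt3b against met). The cmt/dnmt3b libraries were also above those of met/dnmt3b (log2 fold change 3.302 ± 0.54 SE, adjusted p = 0.00215).

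**Figure D5:**
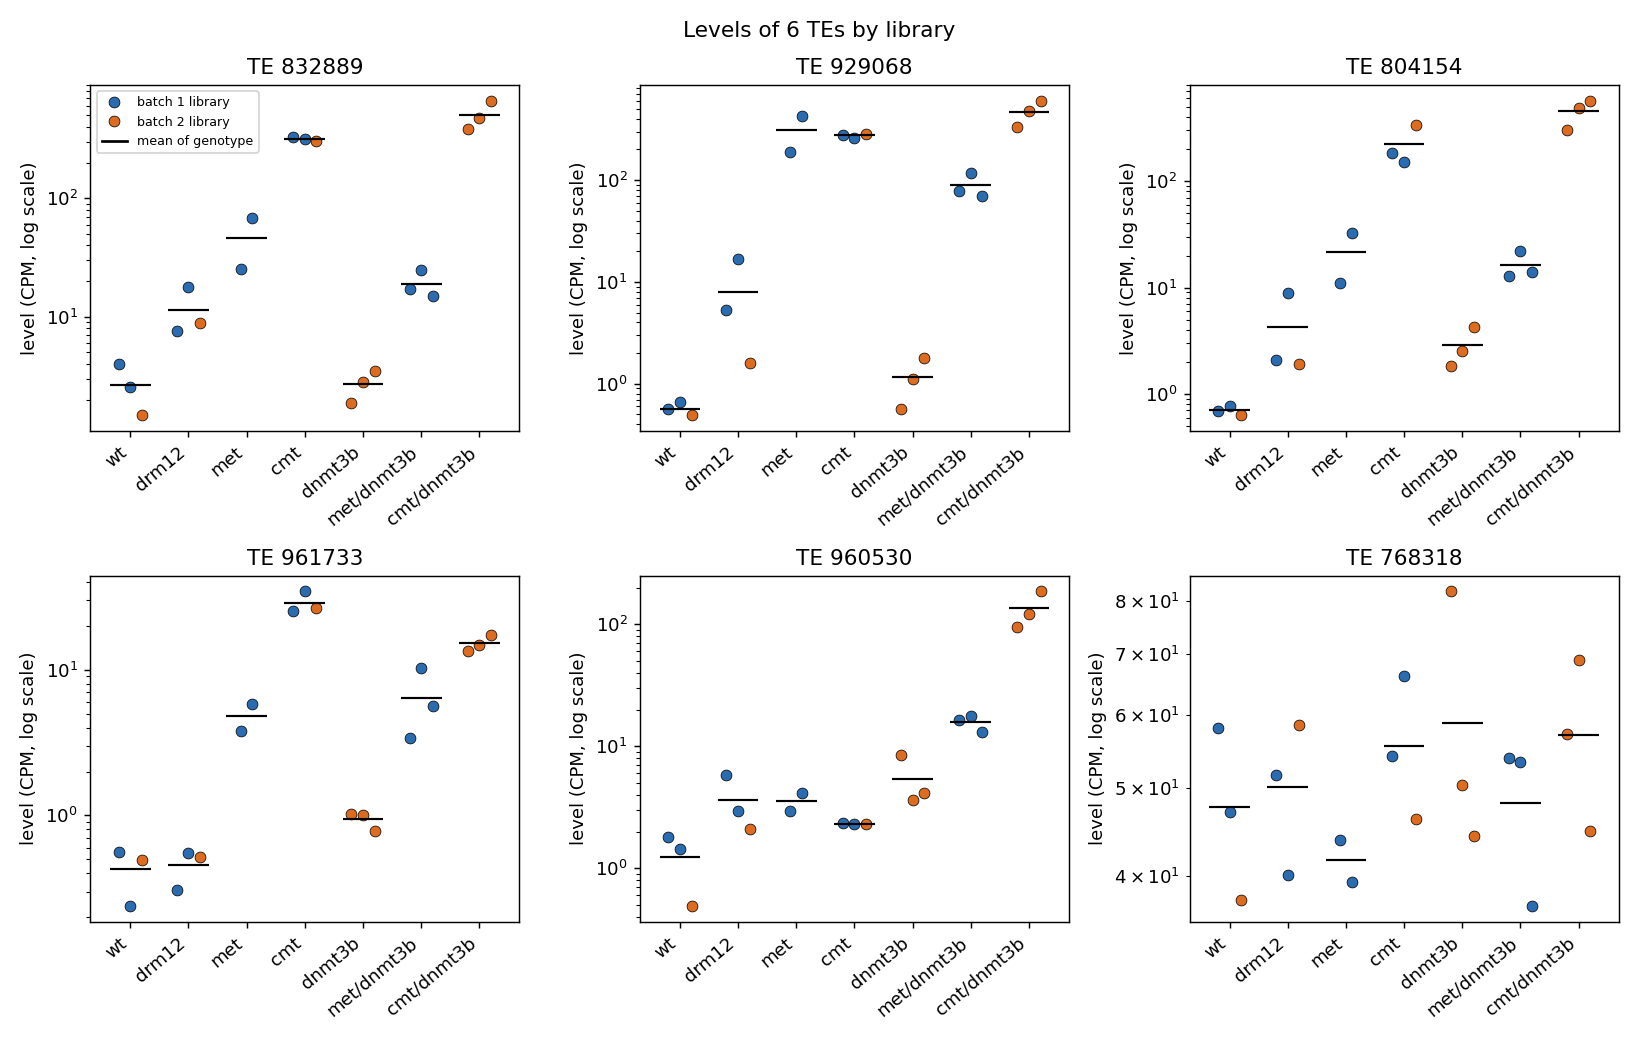
Level (CPM, log scales with different ranges) of 5 TEs that rose in mutants and of TE 768318, the TE with the highest wt level, in each of the 20 libraries by genotype. Points are libraries coloured by batch and lines are genotype means. TEs 832889 and 804154 are above 100 CPM in the cmt and cmt/dnmt3b libraries alone, TE 929068 also in both met libraries and in met/dnmt3b replicate 2, and TE 768318 lies between 37.1 and 81.9 CPM throughout.

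TE 895272 and TE 912561 were the 2 with the largest rises in dnmt3b. TE 895272 had 18.96, 9.93 and 8.304 CPM in dnmt3b and 21.97, 28.1 and 27.5 in cmt/dnmt3b, against 3.45, 2.48 and 0.676 in drm12 (log2 fold change 3.34 ± 0.56 SE, adjusted p = 0.0033 for dnmt3b), and 0.126, 0.239 and 4.21 in wt. TE 912561 had 4.21, 2.58 and 3.35 CPM in dnmt3b and 9.15, 14.4 and 13.3 in cmt/dnmt3b, against 0.369, 0.771 and 0.156 in drm12 (log2 fold change 4.004 ± 0.69 SE, adjusted p = 0.00353 for dnmt3b). In both, the cmt libraries stayed in or near the drm12 range, at 2.71, 3.49 and 2.797 and 0.902, 1.05 and 0.504 CPM. TE 844932 was instead high in both mutants that lack CMT, with 3.37, 3.38 and 1.47 CPM in cmt and 3.96, 2.92 and 2.95 in cmt/dnmt3b, against 0.308, 0.386 and 0.156 in drm12 (log2 fold change 3.22 ± 0.64 SE, adjusted p = 0.00423 for cmt) and 0.0665, 0.323 and 0.12 in met/dnmt3b (log2 fold change 5.07 ± 0.98 SE, adjusted p = 0.00615 for cmt/dnmt3b against met/dnmt3b).

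Some TEs went with the batch of the labels. In the same fit, 25 of the 245 TEs were higher in batch 2 than in batch 1 and 0 lower, beside 6.36% of all features that were higher and 0.489% lower. Of all 6663 TEs tested, 1565 were higher and 6 lower, with a median log2 fold change of 2.35, against 0.09 for the 245 TEs. The lean to batch 2 is thus not particular to these TEs. The choice of TEs favours this direction, because it counted the batch 2 wt library, and 24 of the 25 had the greater part of their wt counts there. Of 215 tested TEs with at least 10 counts over the batch 1 wt libraries, a rule added after seeing the data, 3 were higher in batch 2 and 0 lower. This batch term rests on drm12 and cmt, since wt is outside the fit. Without drm12 replicate 3, 8 were higher and 11 lower, without cmt replicate 3, 40 were higher and 5 lower, and without drm12 replicate 1 or 2 or cmt replicate 1 the totals were 13, 14 and 16. Over all features the calls in these runs were 2463, 4171, 1158, 1138 and 869 in the same order, against 1837. At an unadjusted p under 0.05, 46 of the 245 TEs differed in either direction, and DESeq2 called 30 higher and 3 lower. TE 859416 had 0, 0.0551 and 6.19 CPM in drm12 and 0.24, 0.554 and 6.46 in cmt, replicate 3 of each being the batch 2 library (log2 fold change 5.02 ± 0.58 SE, adjusted p = 0.00105), and 0, 0.0597 and 1.69 in wt. TE 753634 had 0, 0 and 1.98 CPM in drm12, 0.12, 0.111 and 1.88 in cmt (log2 fold change 4.93 ± 0.65 SE, adjusted p = 0.00201) and 0, 0 and 1.62 in wt, so its 23 wt counts all came from the batch 2 library. These 2 TEs were named for other comparisons and are shown here after their values were seen.

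Over all 266 TEs, 41 (15.4%) had a level in drm12 replicate 3 more than 5 times the mean of the other drm12 libraries and 7 (2.63%) one under 0.2 times that mean, beside 5.53% and 6.33% of the genes with 15 to 199 wt counts. In wt, whose counts chose the TEs, 34 (12.8%) were more than 5 times higher in replicate 3 and 21 (7.89%) under 0.2 times, beside 2.53% and 8.3% of these genes. Of the 266 TEs, 245 had 15 to 199 wt counts, so TEs and genes differ in their range of counts. In both genotypes 27 TEs were more than 5 times higher. What made the batches differ is not given in the sources used here, and its part in the levels was not tested.

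For such TEs a comparison between genotypes of different batches rests on the batch term. TE 821870 had 2.28, 1.98 and 116 CPM in drm12, 24.1, 18.4 and 18.6 in dnmt3b, 1.5 and 0.107 in met and 1.68, 1.29 and 2.38 in cmt/dnmt3b. Its fall in cmt/dnmt3b against drm12 (log2 fold change -5.68 ± 0.77 SE, adjusted p = 6.91e-05) was lost without drm12 replicate 3 (log2 fold change -2.12, adjusted p = 0.127), while that against dnmt3b, in the same batch (log2 fold change -3.87 ± 0.69 SE, adjusted p = 0.000272), was kept in all 14 alternative settings. TE 942205, with 0.396, 0.34 and 0.34 CPM in cmt/dnmt3b and 0.998, 2.1 and 1.14 in met/dnmt3b, was called lower in cmt/dnmt3b against met/dnmt3b, with a log2 fold change of -7.43 ± 1.51 SE (adjusted p = 0.00839), a step far larger than that between the levels. TE 927810 (1.33, 4.899 and 1.68 CPM in met/dnmt3b, 0.0615, 0 and 2.91 in drm12) and TE 780377 (3.93, 5.01 and 1.92 and 0, 0.0551 and 2.24 CPM), the 2 with the largest rises in met/dnmt3b against drm12, had no more than 1 count in each of the batch 1 drm12 libraries.

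Whole genotypes without a count were rare. Of the 266 TEs, 1 had 0 counts in all drm12 libraries, 3 in met, 1 in cmt, 5 in dnmt3b, 2 in met/dnmt3b and 2 in cmt/dnmt3b. TE 788449, named for this after its values were seen, had 17, 10 and 8 counts in the wt libraries and 0 counts in every library of drm12, met, dnmt3b and met/dnmt3b. In cmt it had 1, 2 and 19 counts and in cmt/dnmt3b 5, 5 and 8. It did not pass the low-count filter and has no test.

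Neighbouring identifiers were sometimes both transcribed. Among the 266 TEs, 21 stand in 10 runs of consecutive identifiers, 9 of 2 and 1 of 3. Whether consecutive identifiers are neighbours in the genome was not checked. TE 912561 and TE 912562 had means of 3.38 and 3.19 CPM in dnmt3b, 12.3 and 11.6 CPM in cmt/dnmt3b, and 0.432 and 0.465 CPM in drm12, and parted in cmt, at 0.820 and 0.186 CPM. TE 929067 and TE 929068 differed more, with means of 1.46 and 7.94 CPM in drm12 and 11.6 and 1.16 CPM in dnmt3b.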

How the data were processed

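Polyadenylated RNA of 20 moss protonema libraries was sequenced. The submitters' processing notes name Trim Galore 0.6.0, cutadapt 1.15 and STAR 2.7.0f. The values deposited by the authors are raw counts per row, with 31967 gene rows and 241351 TE rows. No source used here gives the genome build, the counting program or how reads with several matches were treated.

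CPM was computed as the count over the column sum times 1000000. Tests used edgeR 4.0.16 in R 4.3.3 (glmQLFit and glmQLFTest) on the 17 mutant libraries, with TMM factors over genes and TEs, filterByExpr by genotype (minimum count 10, minimum total 15), and genotype and batch as terms. P-values were adjusted by the Benjamini-Hochberg method over all 26815 features, with a threshold of 0.05. The standard error is the log2 fold change divided by the square root of F. Exact 95% counting intervals and floors of 3 counts cover counting error only. The code was tested on simulated data.

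The members, the comparisons and the lists were chosen with earlier results of these data known. TEs were named by rule. The rule takes the 10 highest in wt, and for each comparison the 2 called TEs with the largest rise and the 2 with the largest fall. It also takes, among TEs with a wt mean of at least 1 CPM, the 2 lowest and 2 highest ratios to wt per mutant and the 5 most even TEs, and 2 TEs on either side of the count threshold. Alternatives were DESeq2 1.42.0, other scaling, filters and terms, single batches and leaving out each library.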

Additional observations from a re-analysis of the deposited data

Results flagged for a closer look

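The effect of losing DNMT3b was compared between the cmt background (cmt/dnmt3b against cmt) and the met background (met/dnmt3b against met), and the difference was tested as an interaction term in edgeR. Of the 245 TEs tested, 15 differed past the threshold, 14 with a higher signed log2 fold change in the cmt background and 1 with a lower one, beside 0.291% and 0.224% of all features. The signed difference, cmt minus met background, was 6.13 log2 units for TE 894912, 5.03 for TE 851051, 4.65 for TE 822512, 4.56 for TE 936921, 3.80 for TE 928701, 3.67 for TE 960530, and 3.62 for TE 760401. Smaller differences of the same sign were found for TE 920264 (2.98), TE 898979 (2.96), TE 832999 (2.92), TE 953026 (2.75), TE 768207 (2.55), TE 920417 (2.49) and TE 851147 (2.45). A higher signed value is not always a larger effect. For TE 822512 the log2 fold change was -3.32 in the met background (adjusted p = 0.00801) and 1.33 in the cmt background (adjusted p = 0.106). For TE 859416 it was 3.60 (adjusted p = 0.0101) and -1.29 (adjusted p = 0.150), and the difference, at -4.89, passed the threshold in 8 of 18 alternative settings. With groups of 2 or 3 libraries no formal test for outlying samples was made, though each library was left out in turn.

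TE 936921, TE 851051 and TE 894912 were lower in cmt than in every library of the other mutants, cmt/dnmt3b included. The same held for TE 760401, TE 920264 and TE 832999. TE 822512 was among the 14 TEs that were low in this way in met/dnmt3b. TE 936921 changed from 0.884 ± 0.234 CPM in cmt to 25.2 ± 1.02 in cmt/dnmt3b (SD, n = 3 each), and from 24.9 ± 1.58 in met (SD, n = 2) to 25.3 ± 4.06 in met/dnmt3b (SD, n = 3). TE 960530 changed from 2.32 ± 0.0268 CPM in cmt to 135 ± 46.4 in cmt/dnmt3b, and from 3.54 ± 0.841 in met to 15.7 ± 2.398 in met/dnmt3b, so it was higher in both double mutants. The cmt and cmt/dnmt3b groups differ in their batches and the met and met/dnmt3b groups do not, and the part of the batch in these differences was not tested.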

How the results depend on the processing

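Among 135 results on named TEs, 61 passed the threshold under every alternative run and 8 changed sign in at least 1. In cmt/dnmt3b against drm12, leaving out 1 library gave log2 fold changes from -2.55 to 0.44 for TE 837660, -1.53 to 0.49 for TE 845990, -6.97 to 0.05 for TE 898076, -4.69 to 0.71 for TE 942205, -2.92 to 1.68 for TE 949889 and -5.55 to 1.18 for TE 964261. The positive ends are all without drm12 replicate 3, a run in which drm12 and cmt/dnmt3b share no batch. Without a batch term TE 859416 stood at 1.11 in cmt/dnmt3b against met/dnmt3b and at -0.33 in met/dnmt3b against drm12. The cause was not tested for any of these.

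Leaving out 1 library at a time moved the number of TEs called from 4 to 11 in met against drm12, from 20 to 52 in cmt against drm12, from 7 to 15 in dnmt3b against drm12, from 26 to 65 in met/dnmt3b against drm12 and from 43 to 65 in cmt/dnmt3b against drm12. It gave 1 to 26 calls in met/dnmt3b against met, 33 to 82 in cmt/dnmt3b against cmt, 52 to 67 in cmt/dnmt3b against dnmt3b, 17 to 27 in cmt/dnmt3b against met/dnmt3b, 5 to 71 for the difference of DNMT3b loss between backgrounds and 13 to 45 for the batch term. The calls over all features moved too, from 3025 to 9578 in cmt/dnmt3b against drm12, where the main fit gave 8822. With no low-count filter the TE calls were 19 in met against drm12, 27 in dnmt3b against drm12, 52 in met/dnmt3b against met, 58 in cmt/dnmt3b against met/dnmt3b and 53 for the difference between backgrounds. Over all features they were 1088, 2330, 4076, 2322 and 1465, against 147, 1212, 2460, 1469 and 138 in the main fit. With DESeq2 the TE calls were 10, 20 and 34 in the first 3 of these and 41 for the difference. Over all features DESeq2 gave 670, 2036, 3136 and 1191. With no batch term the TE calls were 25 in dnmt3b against drm12, 38 in met/dnmt3b against drm12, 6 in met/dnmt3b against met and 55 in cmt/dnmt3b against met/dnmt3b. Over all features the calls went from 1212 to 2495, 4458 to 2682, 2460 to 1250 and 1469 to 10107 in the same order. Within batch 2, dnmt3b against drm12 gave 47, with 1 drm12 library assumed to vary like the other groups. With all 20 libraries the batch term gave 40, and among TEs with at least 10 counts over the batch 1 wt libraries it gave 3. The batch term was itself added as a comparison after seeing the data.

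The labels number the replicates, but in no comparison with 3 pairs did every same-numbered pair correlate above 0.1. The correlations were 0.74, 0.01 and 0.48 for dnmt3b and drm12 and -0.51, -0.55 and -0.52 for cmt and drm12, so the numbers were not taken as pairs. A replicate block moved the calls to 6 in dnmt3b against drm12, 11 in met/dnmt3b against met, 16 in cmt/dnmt3b against met/dnmt3b, 3 for the difference between backgrounds and 4 for the batch term. Over all features the calls were then 330, 1513, 539, 33 and 149, against 1212, 2460, 1469, 138 and 1837 in the main fit.

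A rule of at least 30 wt counts left 153 TEs. A rule of at least 10 counts over the batch 1 wt libraries gave 243 TEs, of which 223 were among the 266. Without the 10 TEs of highest wt level the summed level was 312.8 CPM in wt, 491.0 in drm12, 586.4 in dnmt3b and 1387.4 in cmt. Low counts limit many single TEs, and 113 of the 266 had fewer than 30 wt counts.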
